A study of Arabidopsis thaliana with 6 samples.

Results

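In the floral meristem, AP3 and AG mark overlapping domains: AP3, a B-class MADS-domain factor, is active where petals and stamens arise, and AG, the C-class factor, where stamens and carpels arise. The genes described here were almost unread in nuclei sorted from the AP3 domain and clearly read in nuclei sorted from the AG domain. They were chosen by a rule on these same counts: under 1 CPM, which is counts scaled to a total of 1000000 over nuclear genes, in each of 3 AP3 libraries and at least 3 CPM in each of 3 AG libraries. The rule was met by 78 of 33056 nuclear genes. The rule used the contrast between the domains in all 6 libraries, so the levels and differences of the 78 genes are a description and carry no test.

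RNA was sequenced from nuclei of Arabidopsis thaliana inflorescences that a flow cytometer had sorted for GFP. The plants, with Ler given as the background, carried pAP1::AP1-GR together with ap1-1 and cal-1, which makes flowers start at the same time. The plants of both groups thus lack functional AP1 and CAL, which halts flower formation until dexamethasone (DEX, 2 µM, applied daily) lets the AP1-GR fusion enter nuclei. Inflorescences were taken on day 4, with flowers at about stage 5, and the nuclei were marked by the nuclear envelope protein NTF with GFP. Of its single-nucleus data from such inflorescences, the study says that cells of short pedicels and stems may be included. NTF was driven by the AP3 promoter in the AP3 libraries (pAP3::NTF, library codes X13, X16 and X74), and by the second intron of AG with a minimal 35S promoter in the AG libraries (pAGi::NTF, codes X14, X26 and X71). A driver marks the cells in which it is active, which need not be every cell that makes the transcript it is named after. The study calls the replicates that it compares within a domain biological. Nothing in the labels says whether the 3 libraries of a domain came from separate plants, so part of the spread between them may be technical. The tests below measure only that spread.

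Vascular tissue is built from a stem cell layer, the procambium, which gives xylem toward the inside and phloem toward the outside. Xylem vessels are made by cells that lay down a thick secondary wall of cellulose, xylan and lignin and then digest their own contents, under the control of the VASCULAR-RELATED NAC-DOMAIN (VND) factors. Phloem carries sugars, amino acids and signals in living sieve elements, which are loaded and served by companion cells. Plants move amino acids between such cells with, among others, exporters of the UMAMIT family.

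The libraries held 31057210 to 40501473 reads of nuclear genes for AP3 and 27495184 to 32407943 for AG, so that 1 CPM stood for between 27 and 40 reads. X74 (AP3) and X71 (AG) had a read in 26453 and 26225 nuclear genes, against 22668 to 23174 in the 4 other libraries. The AP3 transcript was called higher in AP3 (log2 fold change of 2.36 with SE 0.50, adjusted p = 0.0216, edgeR), with 113, 203 and 255 CPM in AP3 and 57.3, 12.6 and 43.1 CPM in AG. Without X16, without X71 and with the 4 libraries without X74 and X71, this call was lost. UFO, an activator of AP3, was called higher as well (log2 fold change of 3.61 with SE 0.31, adjusted p = 4.10e-04, edgeR). The AG transcript went against the labels: it stood at 37.4, 73.9 and 101 CPM in AP3 and 37.9, 14.7 and 42.9 CPM in AG, the groups overlapped, and it was not called (adjusted p = 0.141, edgeR), whereas DESeq2 (adjusted p = 0.0289) and edgeR on all genes with at least 1 read (adjusted p = 0.0297) called it higher in the libraries labelled AP3. The AG to AP3 ratio of CPM was 0.329, 0.365 and 0.395 over the libraries labelled AP3, in the order of codes above. Over those labelled AG it was 0.661, 1.17 and 0.994, in the same way. This ratio set the groups apart, but so did the AP3 transcript in its denominator alone. The ratio is thus no separate check of the AG label. Directions below are those of the labelled groups.

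The vessel programme is represented by 6 of the 78 genes, the 4 VND factors VND1, NAC007 (VND4), ANAC026 (VND5) and NAC101 (VND6) and the vessel products IRX1 (CESA8) and XCP2. The 150 bases before the annotated start of VND1, NAC007, ANAC026, IRX1 and XCP2, from RefSeq's TAIR10.1 assembly on the gene's strand, are shown because these members have a known cell type in common. Capitals mark matches, on either strand, to TATAAA, to the auxin response element TGTCTC, to the secondary wall MYB element ACCNAAC, or to the MYB-CC element, read as G, any base, ATAT, any base and C. The windows are chr2:7851607-7851756 (minus strand) for VND1, chr1:4165929-4166078 (minus) for NAC007, chr1:23219210-23219359 (minus) for ANAC026, chr4:10316887-10317036 (minus) for IRX1 and chr1:7251961-7252110 (plus) for XCP2. Those of ANAC026 and IRX1 lie partly over an annotated long non-coding RNA.
VND1: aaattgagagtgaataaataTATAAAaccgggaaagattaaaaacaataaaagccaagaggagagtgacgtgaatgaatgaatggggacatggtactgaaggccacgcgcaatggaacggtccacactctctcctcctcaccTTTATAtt
NAC007: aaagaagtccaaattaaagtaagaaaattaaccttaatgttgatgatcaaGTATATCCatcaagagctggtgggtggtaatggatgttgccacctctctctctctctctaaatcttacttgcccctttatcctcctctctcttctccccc
ANAC026: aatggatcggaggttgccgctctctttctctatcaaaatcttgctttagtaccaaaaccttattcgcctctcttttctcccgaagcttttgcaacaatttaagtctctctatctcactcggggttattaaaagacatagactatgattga
IRX1: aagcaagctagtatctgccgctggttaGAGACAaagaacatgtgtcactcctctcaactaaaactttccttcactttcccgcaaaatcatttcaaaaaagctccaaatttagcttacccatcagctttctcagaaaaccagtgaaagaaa
XCP2: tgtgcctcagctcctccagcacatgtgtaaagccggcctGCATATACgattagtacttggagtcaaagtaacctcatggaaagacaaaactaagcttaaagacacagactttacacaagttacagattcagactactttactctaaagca
VND1 held TATAAA in each orientation, IRX1 held TGTCTC (as GAGACA), and NAC007 and XCP2 held the MYB-CC element. ANAC026 held none of the 4 in this window, and the secondary wall MYB element was in none of the 5 windows. These are matches of letters and not sites of binding.

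Each of the 78 genes was protein coding and passed the filter on low counts, and together they took 30.2, 38.3 and 39.9 CPM in AP3, against 537, 836 and 675 CPM in AG. Values of 3 libraries are given throughout as X13, X16 and X74 for AP3 and as X14, X26 and X71 for AG. In bulk libraries of sorted nuclei, fewer nuclei of a type and less RNA per nucleus cannot be told apart. The mean over the AP3 libraries ran from 0.123 to 0.965 CPM with a median of 0.474 CPM. Over the AG libraries it ran from 3.34 to 32.1 CPM with a median of 6.63 CPM. The AG mean was 4.22 to 54.0 times the AP3 mean, with a median of 16.8 times. The genes were low but seldom unread in AP3, with 12 to 103 reads summed over the 3 AP3 libraries and 301 to 2942 over the 3 AG libraries, and 76 of the 78 had a read in every library. CCD8, with 0 reads in X13, and UMAMIT29, with 0 reads in X74, were the exceptions, and a count of 0 allows up to 0.0741 CPM in X13 and 0.0856 CPM in X74. By the edgeR test, 78 of 78 were called lower in AP3, as were 6.4% of the 20013 genes tested, and since the rule used this contrast nothing is read from that count.

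**Figure D1:**
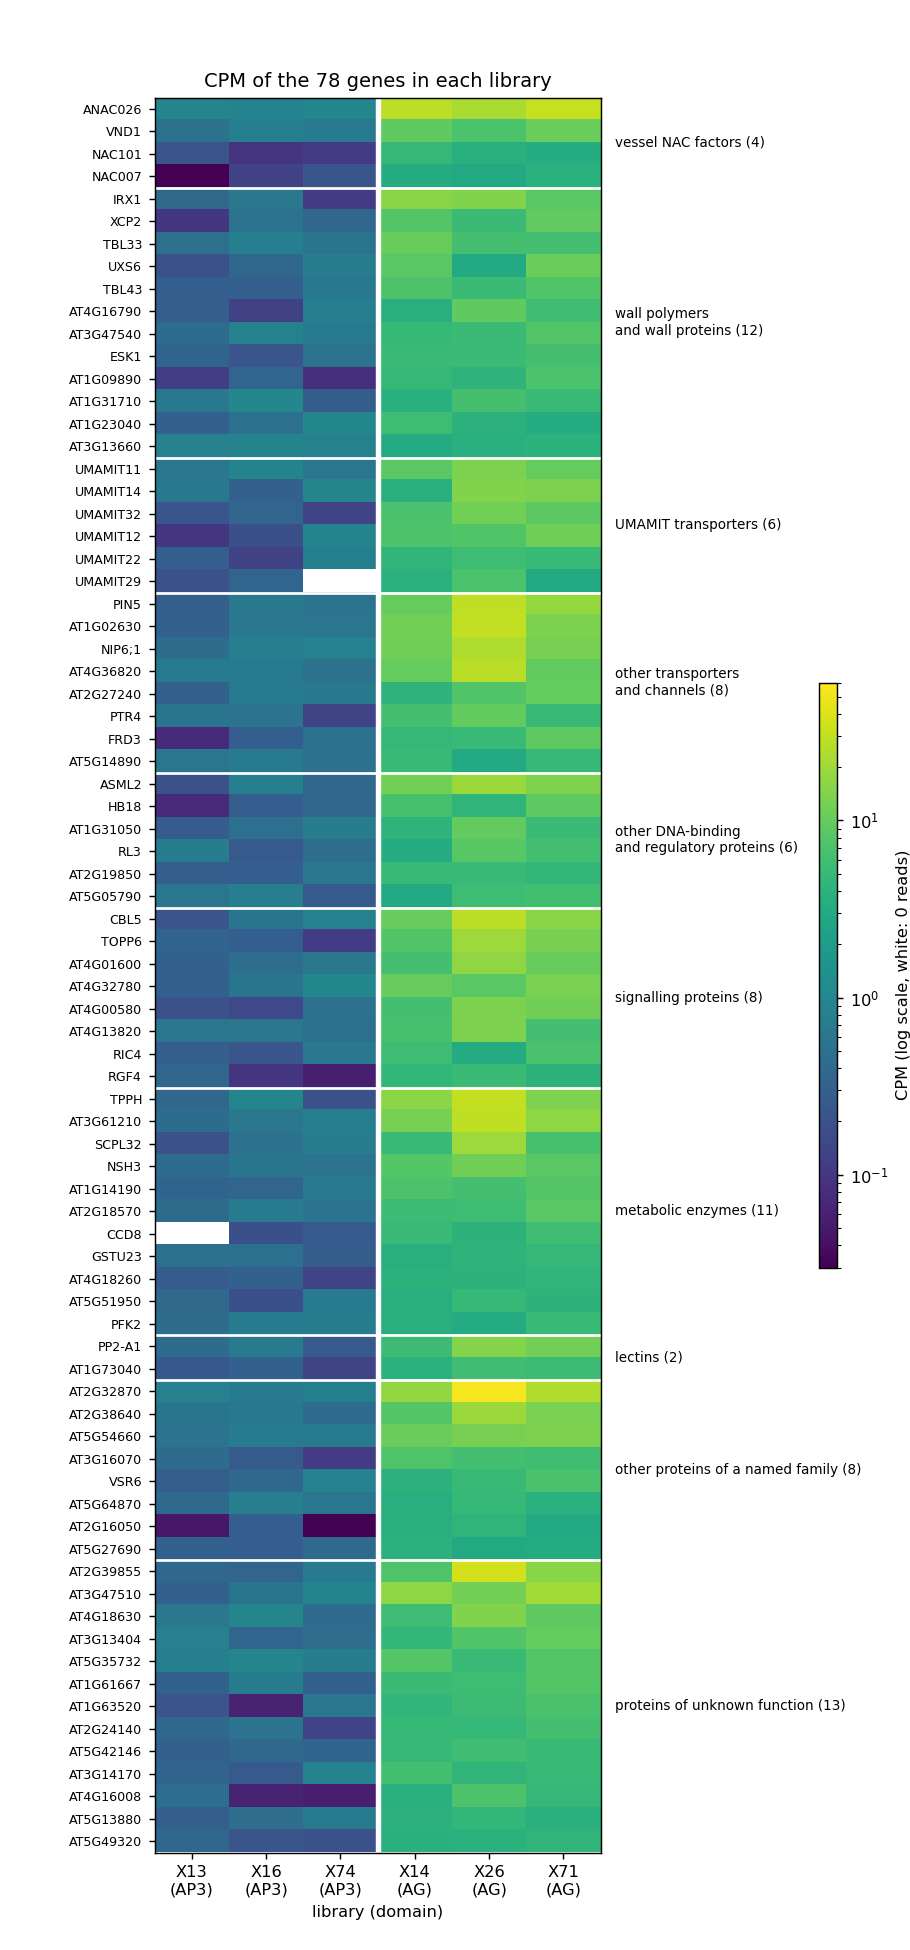
Each row is a gene and each column a library, AP3 on the left and AG on the right, with colour giving the CPM on a log scale and white marking 0 reads. All cells of the 3 AP3 columns are under 1 CPM and all cells of the 3 AG columns are at 3 CPM or more, as the rule requires, and the genes are grouped by what their products are annotated to be.

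The genes formed the edge of a continuous cloud. Just inside the low threshold were AT1G23040, AT4G32780 and ANAC026, whose highest AP3 library was at 0.999 CPM in each case. Just outside it were IMD1 and AT4G02420, with 1.01 CPM in X13, and AT3G12730, with 1.03 CPM in X74. At the high threshold, AT5G27690, NAC007 and UMAMIT29 were inside, with lowest AG values of 3.02, 3.06 and 3.09 CPM, and AT5G67340, AT5G23370 and TLP1 outside, with 2.91, 2.96 and 2.99 CPM. The mirrored rule, under 1 CPM in each AG library and at least 3 CPM in each AP3 library, was met by RBE (RABBIT EARS, a zinc finger factor of petal development) alone, at 5.04, 7.89 and 9.45 CPM in AP3 and 0.837, 0.585 and 0.339 CPM in AG. As shares of the genes at 3 CPM or more in each library of the higher domain, these were 0.488% of 15999 genes for the 78 and 0.00646% of 15476 genes for RBE. The count depended on the limits. It was 18 with a low limit of 0.5 CPM and 229 with 2 CPM, and 119 without X74.

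**Figure D2:**
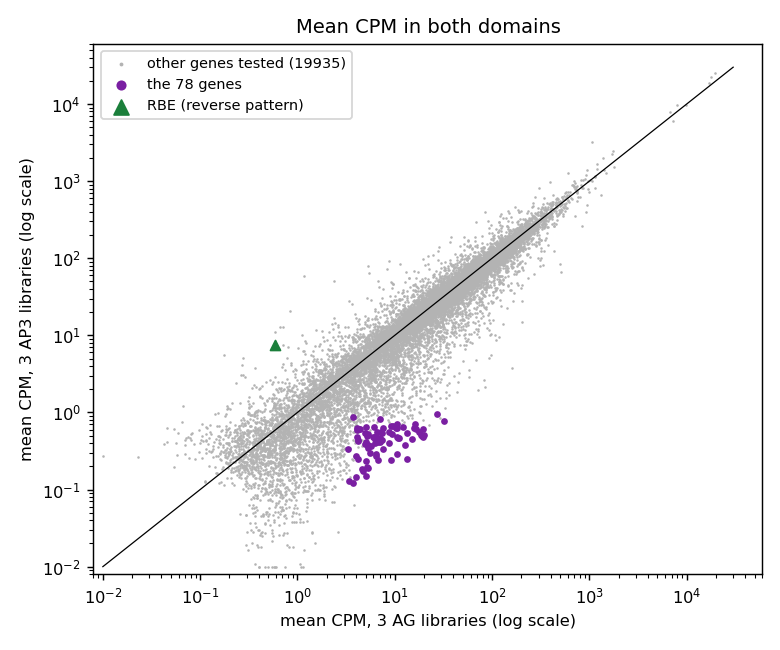
Mean CPM over the 3 AP3 libraries (vertical, log scale) against mean CPM over the 3 AG libraries (horizontal, log scale) for the 20013 genes tested, with means under 0.01 drawn at 0.01 and the line marking equal means. The 78 genes lie under the line between 3.34 and 32.1 CPM in AG, and RBE lies above it.

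The vessel NAC factors formed the clearest family. VND1, NAC007, ANAC026 and NAC101 belong to a family of 7 genes that switch on vessel differentiation. ANAC026 had 0.963, 0.934 and 0.999 CPM in AP3 and 28.3, 23.0 and 30.4 CPM in AG. VND1 had 0.518, 0.805 and 0.685 CPM in AP3 and 9.46, 7.05 and 10.6 CPM in AG. For NAC101 the values were 0.222, 0.0966 and 0.114 CPM in AP3 and 4.80, 3.77 and 3.30 CPM in AG, and NAC007 had 0.0247, 0.129 and 0.228 CPM in AP3 and 3.31, 3.06 and 3.89 CPM in AG. In each of the 4 the lowest AG library was above the highest AP3 library, as the rule fixes. Per length, the AG level was highest in ANAC026, with 8.37 CPM per kb, and lowest in NAC007, with 1.101 CPM per kb. The AG mean was 13.5 to 28.2 times the AP3 mean across the 4. In coding sequence, NAC007 and ANAC026 were 80.1% identical, and the other pairs of the 4 were 63.4% to 66.8% identical, and reads that mapped to more than 1 place had been left out.

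The 3 VND genes outside the rule were tested, and each was called lower in AP3. Each family described here held genes that met the rule on the same 6 libraries. Calls of its other genes are thus no separate support for a pattern of the family. VND3 missed the low threshold through X16 alone, with 0.593, 1.09 and 0.542 CPM in AP3 and 13.7, 14.9 and 8.79 CPM in AG, and was called lower with a log2 fold change of -4.01 with SE 0.42, adjusted p = 7.77e-04 (edgeR). VND7, which in roots drives protoxylem vessels, missed the high threshold through X71, with 0.148, 0.0966 and 0.457 CPM in AP3 and 3.71, 3.61 and 1.605 CPM in AG (log2 fold change of -3.63 with SE 0.68, adjusted p = 0.0127, edgeR). VND2 was above 1 CPM in each AP3 library, with 1.46, 3.80 and 2.68 CPM in AP3 and 14.1, 10.3 and 15.4 CPM in AG (log2 fold change of -2.29 with SE 0.37, adjusted p = 0.0067, edgeR). The groups did not overlap for any of the 3. Of the 20013 genes tested, 3103 were without overlap and lower in AP3, and 1578 without overlap and higher. The call of VND7 was lost without X13 (adjusted p = 0.0503, edgeR) and without X16 (adjusted p = 0.0565, edgeR), and that of VND2 with the 4 libraries X13, X16, X14 and X26 (adjusted p = 0.0505, edgeR). Together these 3 genes took 2.20, 4.99 and 3.68 CPM in AP3 and 31.5, 28.7 and 25.8 CPM in AG.

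A group of cell wall enzymes and proteins, drawn up here with the vessel protease XCP2 among them, held 12 of the 78. IRX1 encodes CESA8, which makes the cellulose of secondary walls in a complex with CESA4 and CESA7. It had 0.420, 0.612 and 0.114 CPM in AP3 and 15.3, 14.2 and 8.61 CPM in AG, and the AG mean was 33.3 times the AP3 mean. Its partners were not called. CESA4 stood at 21.5, 23.2 and 33.2 CPM in AP3 and 20.08, 32.0 and 26.6 CPM in AG (log2 fold change of 0.03 with SE 0.21, adjusted p = 0.961, edgeR), and CESA7 at 8.00, 3.86 and 2.60 CPM in AP3 and 6.84, 7.18 and 7.13 CPM in AG (log2 fold change of -0.44 with SE 0.45, adjusted p = 0.688, edgeR). The groups overlapped for CESA4, and for CESA7 as well, through X13. Of the 8 other CESA genes tested, CESA9 and CESA5 were called lower, and the call of CESA5 was lost on leaving out any 1 of the 6 libraries. IRX1 shares 481 bases with MYB98 on the opposite strand. MYB98 had a mean of 1.79 CPM in AP3 and 1.31 CPM in AG, and reads that fall on both genes were not counted.

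XCP2 is a papain-type protease that takes part in the self-digestion of vessels. It had 0.0988, 0.547 and 0.371 CPM in AP3 and 7.89, 5.30 and 9.72 CPM in AG, and its paralog XCP1 had 0.395, 0.193 and 0.285 CPM in AP3 and 1.45, 1.85 and 3.39 CPM in AG. XCP1 stayed under the high threshold in X14 and X26 and was called lower (log2 fold change of -2.83 with SE 0.58, adjusted p = 0.0184, edgeR), a call lost without X16 and without X71. Xylan, the second polymer of these walls, was represented by enzymes of its synthesis. UXS6, which makes UDP-xylose, had 0.198, 0.386 and 0.742 CPM in AP3 and 8.55, 3.15 and 10.4 CPM in AG. Of the 5 other UXS genes tested, edgeR called none (none at an unadjusted p under 0.05, none with DESeq2). Their median log2 fold change was -0.04 beside 0.03 over all genes tested. Together these 5 took 411, 436 and 525 CPM in AP3 and 441, 510 and 459 CPM in AG. The xylan O-acetyltransferase ESK1 (TBL29) had 0.346, 0.225 and 0.542 CPM in AP3 and 5.38, 5.27 and 6.45 CPM in AG, and TBL33, of the same activity, had 0.494, 0.805 and 0.571 CPM in AP3 and 10.2, 6.37 and 6.17 CPM in AG. In UXS6, ESK1 and TBL33 the AG values were at least 4.25 times the highest AP3 value. TBL43, another member of the TRICHOME BIREFRINGENCE-LIKE family, had 0.414 ± 0.210 CPM in AP3 and 6.71 ± 1.21 CPM in AG, but it shares 406 bases on the same strand with AT2G30890, which had 1.51 CPM in AP3 and 19.99 CPM in AG. Of the 36 other TBL genes tested, 6 were called lower in AP3 and 1, TBL39, higher (a call lost without X71), with a median log2 fold change of -0.18 beside 0.03 over all genes tested.

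The remaining genes of this group were placed there by family name, and the annotation of some names no wall role. AT1G09890 (a rhamnogalacturonate lyase, of the kind that cuts pectin) had 0.188 ± 0.145 CPM in AP3 and 5.31 ± 1.46 CPM in AG. AT3G47540 (a chitinase family protein), AT1G31710 (a copper amine oxidase) and the hydroxyproline-rich glycoproteins AT4G16790 and AT1G23040 had AG means of 4.31 to 6.29 CPM. AT3G13660, a dirigent-like protein, was the gene with the smallest difference of the 78, at 0.864, 0.902 and 0.856 CPM in AP3 and 3.20, 3.74 and 4.13 CPM in AG, and its AG mean was 4.22 times the AP3 mean.

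**Figure D3:**
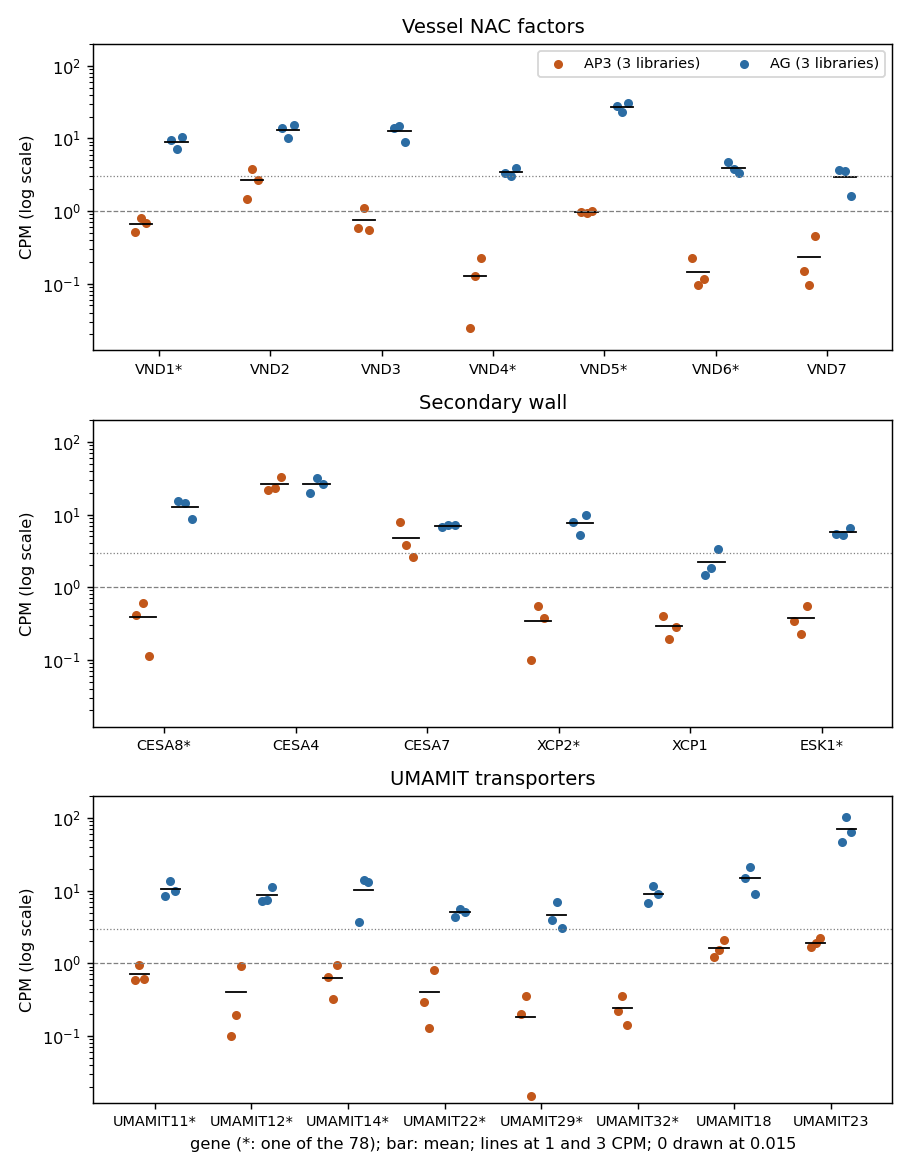
CPM (log scale) of vessel NAC factors, secondary wall genes and UMAMIT transporters, AP3 libraries in orange on the left of each gene and AG libraries in blue on the right, with the mean as a bar, an asterisk on the 78 genes, and 0 drawn at 0.015. Genes with an asterisk are separated between the domains because the rule fixes this. VND2, VND3 and VND7 are without overlap as well, as were 3103 of the 20013 genes tested in this direction. CESA4 and CESA7, which the rule did not choose, overlap.

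The UMAMIT family, transporters that let amino acids out of cells, had 6 members among the 78. UMAMIT11 had 0.593, 0.934 and 0.599 CPM in AP3 and 8.51, 13.5 and 9.90 CPM in AG. UMAMIT14 had 0.642, 0.322 and 0.942 CPM in AP3 and 3.75, 14.1 and 13.2 CPM in AG, the widest range of the 6 in AG, where X14 lay far under X26 and X71. UMAMIT12 had 0.0988, 0.193 and 0.913 CPM in AP3 and 7.20, 7.54 and 11.3 CPM in AG, with X74 the highest AP3 library. For UMAMIT32, UMAMIT22 and UMAMIT29 the means were 0.240 ± 0.107 CPM in AP3 and 9.09 ± 2.53 CPM in AG, 0.408 ± 0.349 CPM in AP3 and 5.05 ± 0.602 CPM in AG, and 0.184 ± 0.177 CPM in AP3 and 4.66 ± 2.06 CPM in AG (SD, n = 3 each). Their coding sequences were 57.6% to 65.1% identical between pairs. Beyond these 6, 28 UMAMIT genes were tested, of which edgeR called 11 lower in AP3 and none higher (none at an unadjusted p under 0.05, none with DESeq2), with a median log2 fold change of -0.98 beside 0.03 over all genes tested. Among those called was UMAMIT23, at 1.68, 1.90 and 2.20 CPM in AP3 and 46.4, 104 and 63.5 CPM in AG (log2 fold change of -5.15 with SE 0.32, adjusted p = 1.81e-04, edgeR). UMAMIT18, a phloem marker, had 1.23, 1.55 and 2.112 CPM in AP3 and 14.9, 21.5 and 8.95 CPM in AG (log2 fold change of -3.17 with SE 0.38, adjusted p = 0.00174, edgeR). Neither reached the rule, since both were above 1 CPM in each AP3 library.

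The other transporters and channels numbered 8. PIN5 is a short auxin carrier of the endoplasmic reticulum. It had 0.296, 0.644 and 0.542 CPM in AP3 and 10.0, 28.6 and 18.3 CPM in AG, with X26 highest. AT1G02630, a nucleoside transporter family gene, had 0.321, 0.612 and 0.599 CPM in AP3 and 11.9, 29.9 and 13.4 CPM in AG. NIP6;1, a boric acid channel that serves young tissues, had 0.444, 0.805 and 0.856 CPM in AP3 and 11.4, 24.5 and 12.7 CPM in AG. AT4G36820, annotated as a calcium uniporter, had 0.716, 0.676 and 0.514 CPM in AP3 and 10.1, 27.5 and 9.78 CPM in AG. In these 4 genes X26 was the highest library by a wide margin, at 2.02 to 2.77 times the mean of X14 and X71. The peptide transporter family gene PTR4 had 0.419 ± 0.240 CPM in AP3 and 7.01 ± 2.26 CPM in AG. FRD3, which releases citrate into the xylem and so keeps iron mobile, had 0.0741, 0.290 and 0.514 CPM in AP3 and 4.69, 5.23 and 9.13 CPM in AG, and in it X71 was the highest AG library. AT2G27240, annotated as an aluminum activated malate transporter, and AT5G14890, annotated as a potassium transporter, had AG means of 7.28 and 4.34 CPM. In the PIN family, 3 of the 7 other genes tested were called lower as well, namely PIN3, PIN7 and PIN8. PIN8, the other short PIN with a reproductive role, had 0.198, 0.290 and 0.457 CPM in AP3 and 3.20, 2.34 and 3.05 CPM in AG (log2 fold change of -3.14 with SE 0.50, adjusted p = 0.00624, edgeR). Of 4 other NIP genes tested, NIP5;1, a boric acid channel of roots, was called lower (log2 fold change of -1.45 with SE 0.37, adjusted p = 0.0447, edgeR), with 7.14, 10.8 and 25.4 CPM in AP3 and 36.9, 36.1 and 46.2 CPM in AG, and this call was lost without X13, X16, X14, X26 or X71.

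Regulators outside the VND family numbered 6. ASML2, a CCT-domain protein that activates sugar-responsive genes, had 0.198, 0.805 and 0.371 CPM in AP3 and 12.0, 19.3 and 13.6 CPM in AG. HB18, a class II homeodomain leucine zipper factor, had 0.0741, 0.290 and 0.371 CPM in AP3 and 6.66, 4.29 and 9.04 CPM in AG. The AG mean of ASML2 was 32.7 times and that of HB18 27.2 times the AP3 mean. The bHLH factor AT1G31050, the RADIALIS-like protein RL3, the homeodomain-like protein AT5G05790 and AT2G19850, annotated as a transcription repressor, had AG means of 4.93 to 6.36 CPM and AP3 means of 0.395 to 0.541 CPM.

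The signalling proteins numbered 8. TOPP6, a catalytic subunit of type 1 protein phosphatase, showed the largest ratio of the 78, 54.0 times, with 0.346, 0.290 and 0.114 CPM in AP3 and 7.67, 19.99 and 12.8 CPM in AG. CBL5, a calcium sensor that acts through CIPK kinases, had 0.222, 0.580 and 0.856 CPM in AP3 and 10.1, 27.3 and 15.4 CPM in AG. Both were highest in X26. RGF4 (GOLVEN 3), a peptide precursor of the root meristem growth factor family, had 0.370, 0.0966 and 0.0571 CPM in AP3 and 4.62, 5.40 and 4.10 CPM in AG, and of its 2 tested relatives RGF9 was called lower (log2 fold change of -3.27 with SE 0.60, adjusted p = 0.012, edgeR). RIC4, an effector of ROP GTPases at the cell cortex, had 0.296, 0.225 and 0.628 CPM in AP3 and 5.67, 3.25 and 6.85 CPM in AG. The phosphoinositide binding protein AT4G32780, the GRAM domain protein AT4G01600, the leucine-rich repeat protein AT4G13820 and the COP1-interacting protein-like AT4G00580 had AG means of 8.77 to 11.1 CPM. In CBL5's family edgeR called none of the 7 other genes tested (3 at an unadjusted p under 0.05, 2 with DESeq2), and the family's median log2 fold change without CBL5 was -0.07.

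Metabolic enzymes numbered 11. TPPH removes the phosphate from trehalose 6-phosphate, a signal of sucrose supply, and it had 0.370, 0.966 and 0.200 CPM in AP3 and 16.0, 30.1 and 13.9 CPM in AG. Of the 7 other TPP genes tested, edgeR called none lower (2 at an unadjusted p under 0.05, none with DESeq2), and TPPA was called higher (log2 fold change of 0.75 with SE 0.19, adjusted p = 0.0427, edgeR), with 37.4, 36.3 and 35.3 CPM in AP3 and 24.8, 23.7 and 19.3 CPM in AG, a call lost on leaving out any 1 of the 6 libraries. CCD8 (MAX4), an enzyme of strigolactone synthesis, had 0, 0.193 and 0.257 CPM in AP3 and 5.20, 4.03 and 5.80 CPM in AG. It overlaps AT4G32820 on the opposite strand, which had 36.0 CPM in AP3 and 40.7 CPM in AG. The nucleoside hydrolase NSH3 had 0.522 ± 0.0698 CPM in AP3 and 9.41 ± 2.01 CPM in AG, and the phosphofructokinase PFK2 had 0.621 ± 0.156 CPM in AP3 and 4.05 ± 1.03 CPM in AG. PFK2 shares 157 bases on the opposite strand with AT5G47800, which had 0.789 CPM in AP3 and 8.56 CPM in AG. SCPL32, a serine carboxypeptidase-like protein, had 0.198, 0.515 and 0.742 CPM in AP3 and 5.09, 19.8 and 6.60 CPM in AG, so that X26 was 3.38 times the mean of X14 and X71, the highest such ratio of the 78. The methyltransferase AT3G61210 reached 0.609 ± 0.163 CPM in AP3 and 19.4 ± 8.47 CPM in AG. The GMC oxidoreductases AT1G14190 and AT5G51950, the glutathione transferase GSTU23, the glycosyltransferase AT2G18570 and the cytochrome b561 protein AT4G18260 had AG means of 4.17 to 7.09 CPM.

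Phloem was represented among the 78 by PP2-A1, a lectin of companion cells and sieve elements, with 0.444, 0.708 and 0.257 CPM in AP3 and 5.49, 14.5 and 12.0 CPM in AG. The mannose-binding lectin family protein AT1G73040 had 0.237 ± 0.0900 CPM in AP3 and 5.01 ± 1.04 CPM in AG. Among products with a named family or domain and no role given here, AT2G32870 (TRAF-like) had the most reads of the 78 in AG, not scaled to length, with 0.815, 0.676 and 0.799 CPM in AP3 and 17.3, 54.8 and 24.0 CPM in AG. The other 7 of these were AT2G38640 (LURP-one-like), AT5G54660 (HSP20-like), AT3G16070 (helicase-like), the vacuolar sorting receptor VSR6, AT5G64870 (Band 7), AT2G16050 and AT5G27690, with AG means of 3.34 to 13.3 CPM. Most of the last 13 genes are annotated as uncharacterized, hypothetical or of unknown function, some by a domain of unknown function. The exceptions are AT2G39855 (plant/protein) and AT5G13880 (cotton fiber protein), whose product names give no function. AT2G39855 had 0.395, 0.354 and 0.685 CPM in AP3 and 7.49, 35.8 and 15.7 CPM in AG. AT3G47510 had 0.321, 0.580 and 0.913 CPM in AP3 and 16.5, 12.2 and 20.8 CPM in AG. The others were AT4G18630, AT3G13404, AT5G35732, AT1G61667, AT1G63520, AT2G24140, AT5G42146, AT3G14170, AT4G16008, AT5G13880 and AT5G49320, with AG means of 3.97 to 9.64 CPM. AT3G47510 is short and had the highest AG level per length, 18.8 CPM per kb. The median of the 78 was 3.44 CPM per kb in AG and that of the genes tested 9.87 CPM per kb, so that the 78 were modestly read also in AG.

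Of 256 genes in 14 lists for tissues and functions, 12 were among the 78. Xylem held 7 of them (the 4 VND genes, IRX1, XCP2 and ESK1), sugar and amino acid transport 4 (UMAMIT11, UMAMIT12, UMAMIT14 and UMAMIT29) and phloem 1 (PP2-A1), and the other 11 lists held none. Outside the 78, the lists could be tested. Of 32 other xylem genes tested, edgeR called 11 lower in AP3 and none higher (1 at an unadjusted p under 0.05 and 1 with DESeq2), with a median log2 fold change of -2.61 beside 0.03 over all genes tested. The 11 were 7 without X13, 5 without X16 and 17 with DESeq2. ACL5, which makes thermospermine and holds back vessel differentiation, stood at 7.06, 9.72 and 11.4 CPM in AP3 and 111, 77.9 and 166 CPM in AG (log2 fold change of -3.61 with SE 0.29, adjusted p = 3.82e-04, edgeR). Of 30 other phloem genes tested, edgeR called 21 lower and none higher (1 at an unadjusted p under 0.05 and 1 with DESeq2), with a median of -2.12. APL, the MYB factor of phloem identity, had 1.78, 2.25 and 2.85 CPM in AP3 and 34.4, 34.6 and 33.9 CPM in AG (log2 fold change of -3.86 with SE 0.21, adjusted p = 1.05e-04, edgeR), and SUC2, the sucrose loader of companion cells, had 1.41, 2.06 and 3.68 CPM in AP3 and 23.4, 68.6 and 17.1 CPM in AG (log2 fold change of -3.90 with SE 0.56, adjusted p = 0.00391, edgeR). APL and SUC2 were above 1 CPM in each AP3 library and so outside the rule. Among the 35 other phloem genes listed, 11 were under 1 CPM in each AP3 library and 7 in each AG library.

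Among the transport list, 9 of 22 other genes tested were called lower and 2 (SUC5 and SWEET1) higher, with a median of -0.98. The amino acid permease AAP4 had 1.14, 2.48 and 1.83 CPM in AP3 and 33.5, 65.5 and 32.5 CPM in AG (log2 fold change of -4.55 with SE 0.38, adjusted p = 3.92e-04, edgeR). The 9 were 4 without X16, and the 2 were 0 without X13 or X16 and 1 without any other library. Of 23 procambium and cambium genes, 7 were called lower and 3 higher, with a median of -0.66, and the 3 were 1 without X16. The stomatal list had 3 of 13 called lower, the endodermis list 2 of 6, the photosynthesis list 2 of 16, the myrosin cell list 1 of 3, the carpel list 1 of 11 and the epidermis list 1 of 14. The stomatal count was 0 without X16 and 1 without X13 or X71, and the myrosin cell count 0 without X16 or X26 and 3 without X74. The endodermis count was 1 without X16, X14 or X26, and the photosynthesis count 1 without X13, X14, X26 or X71. Higher in AP3 were 5 of 14 epidermis genes, 7 of 12 organ identity genes, 2 of 13 genes of dividing cells and 1 of 10 stamen and anther genes. Without X16 these were 2 epidermis, 1 organ identity and 1 dividing cell gene, and without X71 they were 1, 3 and 0. The epidermis count was also 3 without X13 or X26, that of dividing cells 1 without X26, and that of stamen and anther genes 2 without X74 or X14. No senescence gene was called by edgeR, by DESeq2 or at an unadjusted p under 0.05. Of all 20013 genes tested, 6.4% were called lower and 1.36% higher. The number called lower, 1281, was 776 without X13 and 651 without X16. The lists were chosen with earlier results of these data known.

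**Figure D4:**
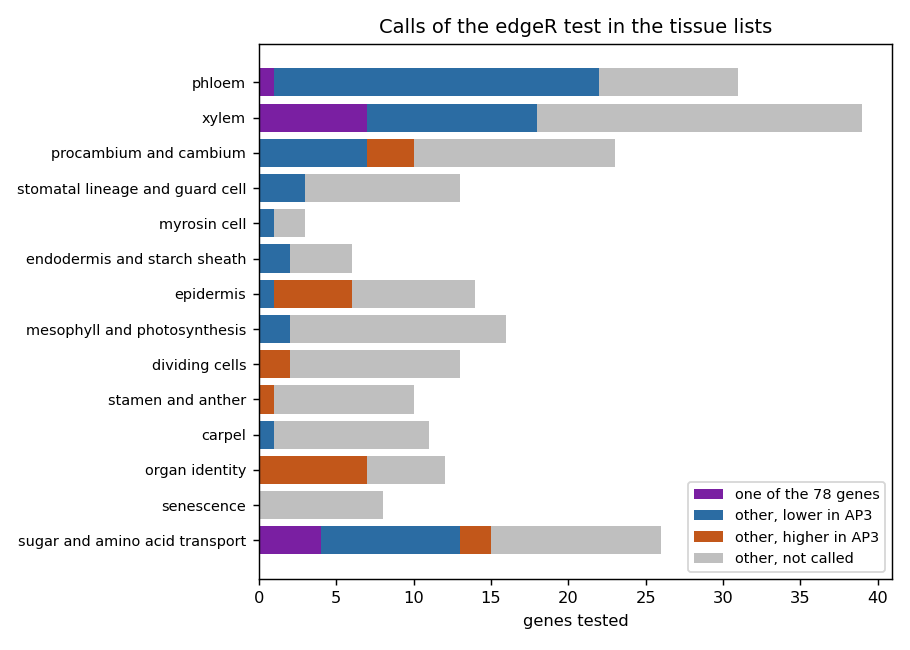
Number of genes tested in each tissue or function list, divided into the 78 genes, other genes called lower in AP3, other genes called higher in AP3 and genes not called (edgeR, adjusted p under 0.05). The xylem list holds 7 of the 78 genes, whereas the phloem list holds 1 and 21 others called lower.

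As sums over the list genes outside the 78, the xylem list summed to 153 to 223 CPM in the AP3 libraries and 375 to 458 CPM in the AG libraries, and the phloem list to 356 to 438 CPM in AP3 and 865 to 1104 CPM in AG. The epidermis list went the other way, at 5572 to 6311 CPM in AP3 and 2084 to 3572 CPM in AG, and photosynthesis genes overlapped, at 2209 to 3078 CPM in AP3 and 2438 to 3249 CPM in AG. Of the 40 other xylem genes listed, 26 were under 1 CPM in each AP3 library, and 14 in each AG library. NST3, the fibre wall switch, was at 0.0322 CPM or less in each of the 6 libraries, whereas CESA4 and CESA7 were read in both domains. The part of the tissue makeup of the sorted nuclei in the levels of the 78 genes was not tested.

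The rule set a floor in each AG library but left the order among them free. X26 was the highest AG library for 37 of the 78 genes, X71 for 32 and X14 for 9, and X14 was the lowest for 44. Over the 16666 nuclear genes with a mean of at least 3 CPM in AG, X26 was highest for 42.5%, X71 for 36.8% and X14 for 20.8%, and X14 was lowest for 32.4%, against 56.4% of the 78. The ratio of X26 to the mean of X14 and X71 ran from 0.332 for UXS6 to 3.38 for SCPL32, and it was above 1.5 for 26 genes (33.3%) and under 1 for 33 (42.3%), against 13.5% and 48.8% of the 16666 genes. All 4 VND genes were under 1 (0.703 to 0.931), and XCP2 was at 0.602, while IRX1 was at 1.19. HB18 was at 0.547 and RIC4 at 0.519. Of the 8 signalling genes, 6 were highest in X26, as were 5 of the 6 UMAMIT genes and 5 of the 8 other transporters. AT2G39855 at 3.09, AT4G36820 at 2.77 and AT2G32870 at 2.65 followed SCPL32. The AP3, PI and AG transcripts were lowest in X26 of all libraries, with 12.6, 23.0 and 14.7 CPM, and the part of this in the order of the 78 genes was not tested.

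**Figure D5:**
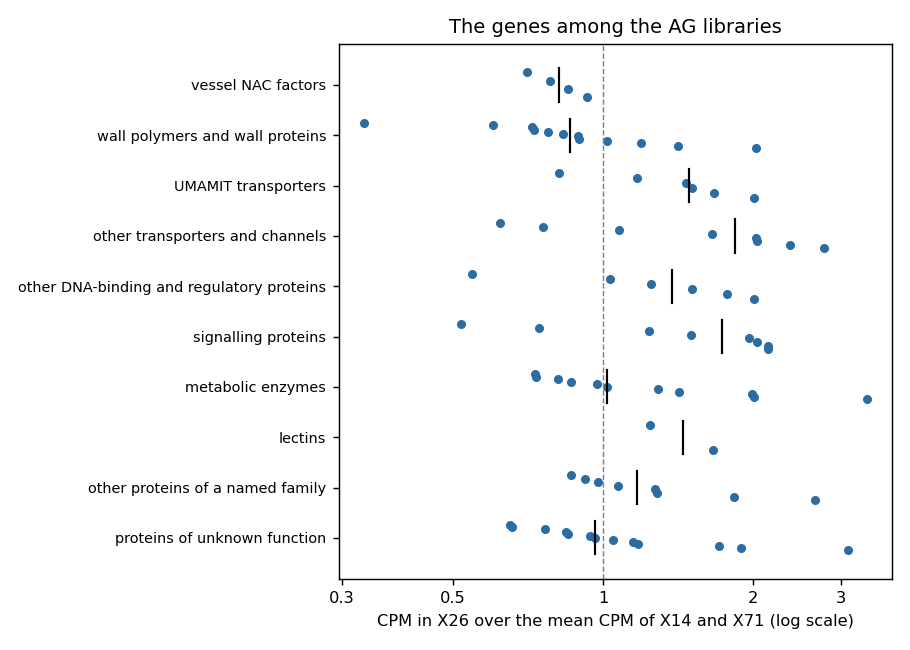
Ratio of the CPM in X26 to the mean CPM of X14 and X71, on a log scale, for each of the 78 genes by group, with the group median as a bar and equality as a dashed line. The 4 vessel NAC factors lie under 1, both lectins above 1 and the genes of each other group on both sides of 1, with the highest ratio, 3.38, among the metabolic enzymes.

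In the annotation the 78 genes were somewhat shorter than the 19304 genes tested that have a coding sequence. Their median length was 1991 bases against 2426, their median coding length 1057.5 bases against 1167, and they had a median of 4 exons against 5. The median GC content was 36.6% against 38.8%. They lay on all 5 chromosomes, 18 on chromosome 1, 16 on chromosome 2, 12 on chromosome 3 and 16 each on chromosomes 4 and 5. Within 20000 bases of each other, with 1 to 3 genes between, lay 5 pairs. UMAMIT32 and RGF4 were 1199 bases apart on chromosome 3, and CBL5 and UMAMIT29 4076 bases apart on chromosome 4. PIN5 and RIC4 were 15369 bases apart on chromosome 5, AT4G32780 and CCD8 16301 on chromosome 4, and AT3G47510 and AT3G47540 9099 on chromosome 3. Another annotated gene overlapped 15 of the 78, on the opposite strand for 12 of them, and as reads were counted without strand these levels are less certain.

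Promoter motifs of the 78 genes were counted beside those of the genes tested. In the 250 bases before to 50 bases after the start, on either strand, TATAAA was in 59.0% of the 78 and 50.3% of the genes tested, the auxin response element TGTCTC in 15.4% and 13.7%, and the MYB element ACCNAAC in 20.5% and 18.3%. The W-box core TTGACC, a WRKY element, was in 5.13% of the 78 and 14.1% of the genes tested. TGTCGG, the high-affinity auxin response element, was in 2.56% and 5.65%, and the lignin MYB element ACCTACC in 1.28% and 1.40%. CC and GG with any 6 bases between, a looser pattern than a MADS-domain site, was in 17.9% of the 78 and 22.5% of the genes tested. The MYB-CC element was in 5.13% and 6.11%. Over all 33054 promoters, the share was 50.6% for TATAAA and 13.8% for the W-box core. These shares are a description and were not tested.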

How the data were processed

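Per the labels and methods of the study, the authors trimmed the reads, mapped them to TAIR10 with STAR 2.7.0b keeping uniquely mapped reads, and deposited raw counts of read pairs, gene by gene, in 6 files. Per the file headers, featureCounts 1.6.0 counted over whole genes, introns included, without strand and leaving out pairs that fall on overlapping genes, so unspliced nuclear RNA is in the counts. The study's methods name another version. A deposited table of variance stabilized values for 4 libraries was not used, and no column of per-sample values was left unmapped.

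The files list 33341 genes. After dropping 285 organelle genes (2.39% to 4.56% of the counts), 33056 remained, each matched to RefSeq's TAIR10.1 annotation, 33043 of them with identical start and end. CPM is the count divided by the library's remaining total, times 1000000. Members were under 1 CPM in each AP3 library and at least 3 CPM in each AG library. The members, the gene lists and the groups of genes were chosen with earlier results of these data known, and the groups by annotated product after the values were seen. Genes named are the 20 members best read in AG, members of a list, of a family with 3 or more members, or annotated as transcription factor, receptor kinase, transporter or signalling peptide, the 3 genes nearest each threshold on either side, neighbouring members, AP3, PI, AG and UFO, and list genes of families described as a whole. Other members are named so that each is accounted for.

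Differences were tested by quasi-likelihood in edgeR 4.0.16 (R 4.3.3) without a block, on the 20013 genes in which 2 or more libraries exceeded 10 reads. Totals were scaled by TMM, p-values were adjusted by Benjamini-Hochberg, and a gene was called at an adjusted p under 0.05. SE was worked back from the log2 fold change and F. The step was tested on simulated data. The alternatives were DESeq2 1.42.0, its size factors, other filters and thresholds, 4 libraries, leaving out each library and, chosen after seeing the data, a term for X74 and X71. Replicate libraries share 1 estimate of the spread. Limits from a count of 0 use 3 counts and cover counting error only. Coding identity was computed from global alignments of reference coding sequences. Protein sequences were not used here. The promoter window of 1 vessel gene is not reported here.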

Additional observations from a re-analysis of the deposited data

How the results depend on the processing

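The number of genes meeting the rule was 78. It was 78 with organelle reads in the totals (73 of the 78 shared), 73 with TMM-scaled totals and 72 with DESeq2 size factors (71 shared in each). It was 18 with a low limit of 0.5 CPM and 229 with 2 CPM, 146 with a high limit of 2 CPM and 38 with 5 CPM, 224 with limits on the group means and 150 in the 4 libraries X13, X16, X14 and X26. Leaving out a library gave 90 to 119 genes, the most without X74, and fewer libraries make the rule easier to meet. The reverse pattern, met by 1 gene, was met by none with a low limit of 0.5 CPM (a count of 0 genes), by 8 with 2 CPM, by 3 with a high limit of 2 CPM, by 28 with limits on group means, and by 1 to 7 when a library was left out (5 without X13, 7 without X14).

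Genes called lower in AP3 numbered 1281 with edgeR, and 651 to 1262 without 1 library (651 without X16, 776 without X13). Genes called higher numbered 273, against 588 with DESeq2, 444 with any gene that had at least 1 read, 75 in the 4 libraries, and 86 to 276 without 1 library (86 without X16, 93 without X71, 170 without X26 and 177 without X13). CESA4, which was not called, changed sign to -0.11 in the 4 libraries, -0.11 without X74 and -0.12 without X14. Of 576 values under alternatives, for lists and single genes, 475 kept their direction and side of the threshold or stayed within 1.5 times. List counts that were 0 and stayed at 0 are among these 475. Of the rest, 51 list counts moved further, and for single genes 41 calls were lost, 6 were gained and 3 values changed sign. The calls of SUC5, without X13, X16, X14 or X26, and of SWEET1, without X13, X16, X74 or X71, were lost. The cause of these changes was not tested. No paired analysis was possible because the labels give the libraries no shared replicate numbers. With a term for X74 and X71 against the other 4 libraries, chosen after seeing the data, edgeR called 1449 genes lower (1260 of the 1281 shared) and 332 higher (266 of the 273 shared). At these depths a gene at 1 CPM had 27 to 40 reads, so members near a threshold could fall on either side by counting error.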
